A study of Mus musculus with 20 samples.

Results

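The transcription factor p53 (gene Trp53), its inhibitor Mdm2 and 7 of its target genes, Cdkn1a, Ccng1, Gadd45a, Sesn2, Phlda3, Plk2 and Btg2, were followed in RNA from mouse ovarian antral follicles after exposure to iodoacetic acid. The genes were taken by symbol from a table of estimated counts for 39253 genes. All 9 were in the table, and all 9 were among the 17810 genes that passed a filter on low counts and were tested. Their Entrez gene numbers in that table are 22059 for Trp53, 17246 for Mdm2, 12575 for Cdkn1a, 12450 for Ccng1, 13197 for Gadd45a, 230784 for Sesn2, 27280 for Phlda3, 20620 for Plk2 and 12227 for Btg2. The lowest estimated count of any of them in any mouse was 257, for Phlda3.

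Iodoacetic acid is a by-product of the disinfection of drinking water. Female CD-1 mice, an outbred stock with no engineered allele in the labels, were 40 days old when exposure began, and for 35 days their drinking water was either plain filtered water or held iodoacetic acid, at 10 mg/L in one dose group and 500 mg/L in the other. Follicles of 220 to 400 µm were dissected at 75 days of age, in diestrus, and the 30 to 40 follicles of 1 mouse made 1 library, so that each of the 20 libraries is a separate animal. There were 10 control mice, 5 mice at 10 mg/L and 5 at 500 mg/L. The animals belonged to 2 experiments, run with a month between them. In experiment 1 the 500 mg/L group had control replicates 6 to 10 beside it, and in experiment 2 the 10 mg/L group had control replicates 1 to 5. Each dose was thus present in 1 experiment, and a difference between the doses cannot be told apart from a difference between the experiments unless each is set against its own controls.

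Totals per library lay between 39.9 and 67.5 M estimated counts (M for mega). Granulosa, theca and oocyte markers were above 0 in every mouse, among them Fshr, the receptor of follicle-stimulating hormone, Cyp17a1, the steroid enzyme of theca cells, and Gdf9, a growth factor secreted by the oocyte. Because a library mixes all cells of the follicles, fewer cells of a type and less RNA per cell cannot be told apart.

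The p53 protein is kept low by MDM2, a ubiquitin ligase that marks it for degradation, and it builds up after DNA damage and other stress mainly because its protein becomes more stable. It then binds a response element made of a pair of half-sites and activates genes that halt the cell cycle, repair DNA, alter metabolism or lead to cell death, and Mdm2 itself is one of these targets, which closes a feedback loop. In the ovary p53 is known in connection with granulosa cell loss during atresia and with the response of oocytes to DNA damage. Several targets also answer to other signals: Btg2 and Plk2 are induced within minutes to hours by serum and growth factors.

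Promoter sequences are shown for the 3 genes on which the results below turn and whose windows held one of the elements searched, Btg2, Plk2 and Cdkn1a. They are the 250 bases before the annotated start in RefSeq on GRCm38.p6, a different build from that of the counts (GRCm39), and all 9 genes matched by symbol. The search was chosen after expression values had been seen. In Btg2 and Plk2, capitals mark TGACGTCA, the consensus cAMP response element, which reads the same on both strands. In Cdkn1a, for which the more upstream start is shown, capitals mark a p53 response element of 20 bases, defined as 2 abutting half-sites with intact cores and at most 1 mismatch in the 12 flanking bases, a definition that was settled after this sequence had been seen. The windows are chr1:134079156-134079405 on the minus strand for Btg2, chr13:110394794-110395043 on the plus strand for Plk2 and chr17:29090729-29090978 on the plus strand for Cdkn1a.
Btg2: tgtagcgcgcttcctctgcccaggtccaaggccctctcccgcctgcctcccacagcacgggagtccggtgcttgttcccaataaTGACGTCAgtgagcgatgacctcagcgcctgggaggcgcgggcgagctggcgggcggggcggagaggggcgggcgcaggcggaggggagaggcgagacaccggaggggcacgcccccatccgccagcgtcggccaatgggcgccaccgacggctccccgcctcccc
Plk2: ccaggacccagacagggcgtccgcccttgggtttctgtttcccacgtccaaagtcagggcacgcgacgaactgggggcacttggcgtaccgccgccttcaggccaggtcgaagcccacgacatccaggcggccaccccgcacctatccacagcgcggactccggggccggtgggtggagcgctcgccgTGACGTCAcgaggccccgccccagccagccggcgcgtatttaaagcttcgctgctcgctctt
Cdkn1a: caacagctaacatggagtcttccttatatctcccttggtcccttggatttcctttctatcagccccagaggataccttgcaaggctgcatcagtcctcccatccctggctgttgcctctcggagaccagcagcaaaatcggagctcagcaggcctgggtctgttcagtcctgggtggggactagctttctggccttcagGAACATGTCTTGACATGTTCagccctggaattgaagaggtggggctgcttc
TGACGTCA lay 166 to 159 bases before the start of Btg2 and 62 to 55 bases before that of Plk2, and among the 9 genes these were the only windows that held it. It was present in 508 of 32851 promoter windows of the same length, or 1.55%. The p53 response element lay 51 to 32 bases before the upstream start of Cdkn1a, and 15 of the 32851 windows, or 0.0457%, held a match to that definition on either strand. Single p53 half-sites of 10 bases (3 purines, C, 2 bases that are A or T, G, 3 pyrimidines) lay in the windows of 5 of the 9 genes, Trp53, Mdm2, Cdkn1a, Ccng1 and Gadd45a, beside 7.13% of the 32851 windows. The window of the other annotated start of Cdkn1a held neither the p53 response element nor a half-site. The cAMP element and the p53 elements did not overlap in these genes. These matches describe letters in the window, and no binding was measured.

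The question put to the data was whether the transcripts of p53 and its targets differed between exposed and unexposed follicles. None of the 9 genes passed edgeR's quasi-likelihood test at an adjusted p of 0.05 in any of 7 comparisons. Against all controls, 0 of 9 were called at 10 mg/L, where 0.00561% of all tested genes were, and 0 of 9 at 500 mg/L, where 0.0112% were. At an unadjusted p under 0.05, 2 of the 9 stood out at 10 mg/L (Plk2 and Btg2, both higher) beside 6.22% of all genes in either direction and 3.08% higher, and 2 of 9 at 500 mg/L (Btg2 higher, Trp53 lower) beside 8.69%. DESeq2, limma-trend and limma-voom also called 0 of the 9 at either dose. Exposed mice and controls overlapped for all 9 genes at both doses, while groups did not overlap for 0.0955% of all genes at 10 mg/L and 0.331% at 500 mg/L. The medians of the 9 log2 differences were 0.02 at 10 mg/L and -0.12 at 500 mg/L, beside -0.00039 and -0.00014 over all tested genes. The comparisons of the 2 doses share their control mice. Levels are given in CPM, estimated counts per M of library total, with totals scaled by trimmed means (TMM).

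**Figure D1:**
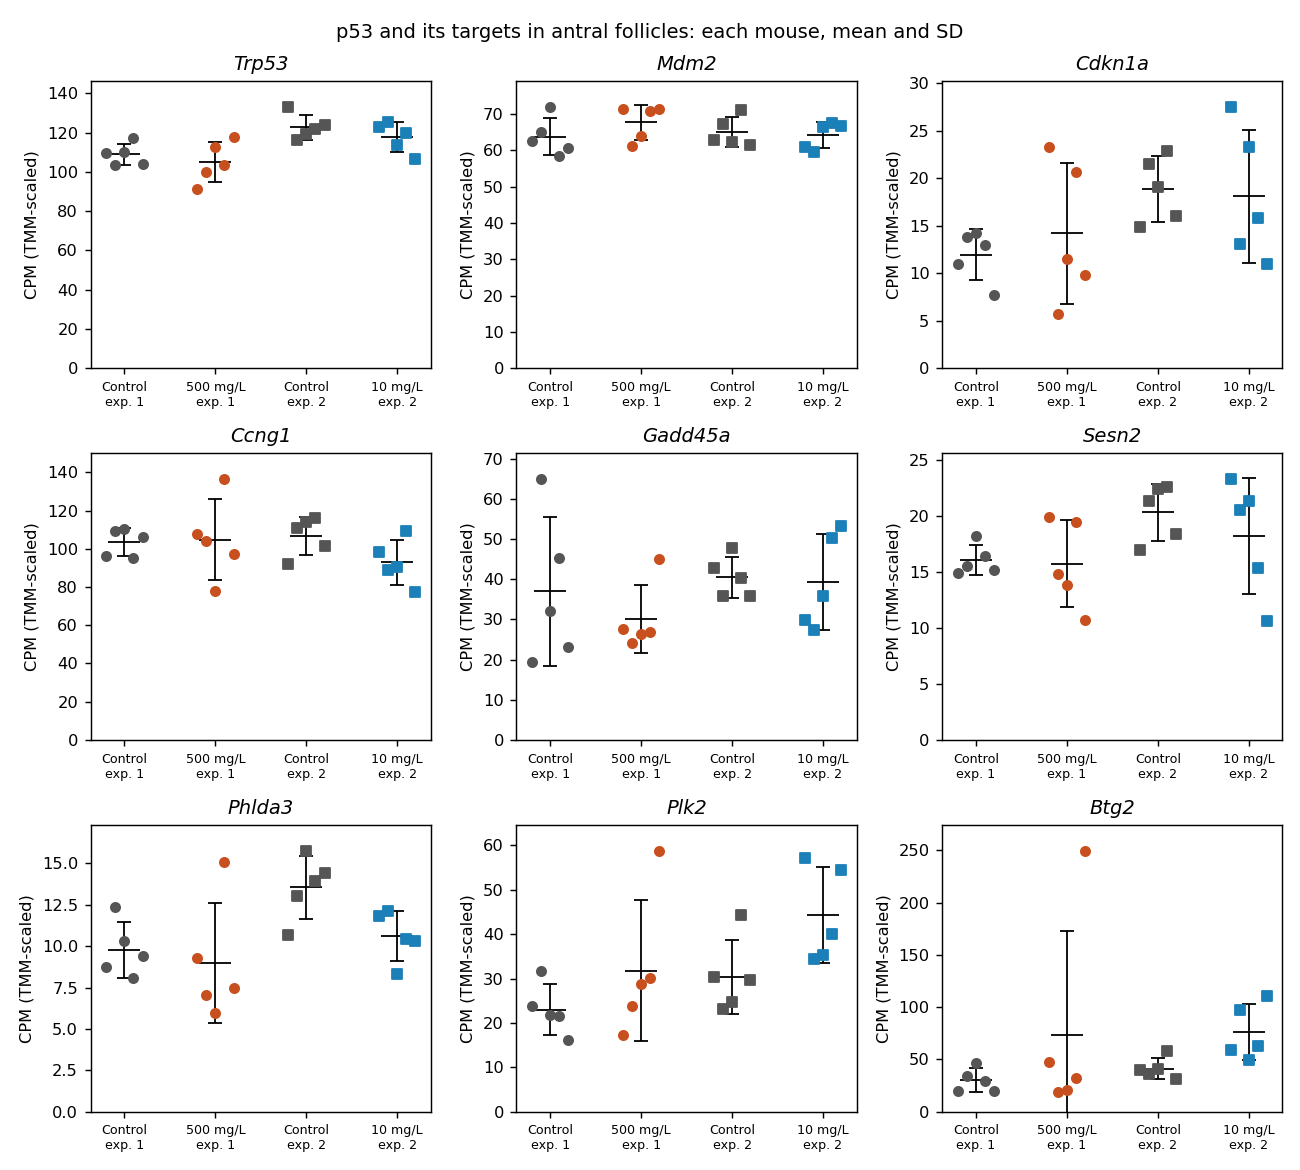
Expression of Trp53, Mdm2 and 7 p53 targets in each of the 20 mice, in TMM-scaled CPM, by experiment and group. Points are mice, long bars means and whiskers SD (the whisker of Btg2 at 500 mg/L is cut at 0). In Btg2, 1 mouse at 500 mg/L lies at 249.5 CPM while the other 4 lie between 18.6 and 47.5.

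Trp53 itself was among the steadiest of these transcripts. Its control values ran from a lowest 103.5 through a median 116.6 to a highest 133 CPM. The mice at 10 mg/L read 123, 125, 114, 120 and 106 CPM in order of replicate number, and the mice at 500 mg/L read 91.3, 100.04, 113, 104 and 118 CPM. The groups overlapped, and 2 mice at 500 mg/L lay below every control. The log2 difference was 0.02 (SE 0.07, edgeR adjusted p = 0.975) at 10 mg/L and -0.14 (SE 0.07, unadjusted p = 0.0444, edgeR adjusted p = 0.562) at 500 mg/L. When only the unexposed mice of experiment 1 served as reference, the 500 mg/L difference was -0.05 (SE 0.07, edgeR adjusted p = 0.967).

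Mdm2 varied as little as Trp53. Its control values had a lowest of 58.6, a median of 62.7 and a highest of 71.9 CPM. Those at 10 mg/L read 61.0, 59.5, 66.4, 67.4 and 66.7 CPM, and the 500 mg/L group 71.3, 61.2, 63.9, 70.7 and 71.5 CPM. Every exposed mouse lay within the range of the controls. The log2 differences were -0.0038 (SE 0.06) at 10 mg/L and 0.07 (SE 0.06) at 500 mg/L, with edgeR adjusted p-values of 0.996 and 0.758. The pooled SD of log2 CPM between mice of the same group and experiment was 0.10 for both Trp53 and Mdm2. The median over all 17810 tested genes was 0.25.

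Cdkn1a encodes p21, which halts the cell cycle by inhibiting cyclin-dependent kinases, and it is a widely used readout of p53 activity. The controls of experiment 1 read 11.0, 13.8, 14.2, 13.0 and 7.73 CPM, and the controls of experiment 2 read 14.8, 21.5, 19.1, 22.8 and 16.1 CPM. Every control of experiment 1 lay below every control of experiment 2. The mice at 500 mg/L, of experiment 1, read 23.3, 5.76, 11.5, 20.7 and 9.83 CPM, which put 2 above and 1 below all 5 of their own controls. The mice at 10 mg/L, of experiment 2, read 27.5, 13.1, 23.3, 15.8 and 10.9 CPM, with 2 above and 2 below their own controls. Against all controls the log2 difference was 0.23 (SE 0.29, edgeR adjusted p = 0.933) at 10 mg/L and -0.12 (SE 0.30, edgeR adjusted p = 0.952) at 500 mg/L. Leaving out replicate 1 brought the 10 mg/L value to 0.036, and leaving out replicate 5 brought it to 0.37. In the 500 mg/L group, -0.37 resulted when replicate 1 was left out and 0.08 when replicate 2 was. Against the controls of the own experiment both signs turned, to -0.06 (SE 0.31, edgeR adjusted p = 0.987) and 0.25 (SE 0.32, edgeR adjusted p = 0.967).

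Ccng1, the gene of cyclin G1, which guides a phosphatase to MDM2, ran from 92.1 through a median of 108 to 116 CPM in controls. At 10 mg/L the mice read 98.4, 88.9, 90.7, 109 and 77.5 CPM, and 3 of the 5 lay below every control. The 500 mg/L group read 108, 104, 78.2, 137 and 97.1 CPM, with 1 mouse above and 1 below all controls. The log2 difference was -0.18 (SE 0.10, edgeR adjusted p = 0.820) at 10 mg/L and -0.0073 (SE 0.10, edgeR adjusted p = 0.993) at 500 mg/L. Within experiment 2, the 10 mg/L difference was -0.20 (SE 0.12, edgeR adjusted p = 0.797).

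Btg2, an antiproliferative protein that recruits a deadenylase to mRNAs, showed the largest differences of the 9 genes at both doses. Control values had a lowest of 19.7, a median of 35.4 and a highest of 58.5 CPM. Mice given 10 mg/L read 59.3, 97.4, 49.6, 63.3 and 111 CPM, and the mice at 500 mg/L 47.5, 18.6, 20.9, 32.4 and 249.5 CPM. At 10 mg/L, 4 of 5 mice lay above all 10 controls and the remaining mouse above their median. In the 500 mg/L group only replicate 5 lay above the controls, and replicate 2 lay below them. The mean was 76.1 ± 26.5 CPM (SD, n = 5) at 10 mg/L and 35.7 ± 11.8 CPM (SD, n = 10) in controls, a fitted log2 difference of 1.09 (SE 0.46, unadjusted p = 0.0289, edgeR adjusted p = 0.760). Against the 5 controls of experiment 2 it was 0.88 (SE 0.55, edgeR adjusted p = 0.816). At 500 mg/L the log2 difference against all controls was 1.04 (SE 0.46, unadjusted p = 0.0357, edgeR adjusted p = 0.542). Leaving out replicate 5 gave -0.26.

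Plk2, a polo-like kinase that acts in centriole duplication, was higher at 10 mg/L in every mouse than the median control. Controls had a lowest of 16.1, a median of 24.2 and a highest of 44.2 CPM. Values at 10 mg/L were 57.2, 34.5, 35.3, 40.1 and 54.5 CPM, and the mice at 500 mg/L 17.4, 23.9, 28.8, 30.2 and 58.8 CPM. At 10 mg/L 2 of 5 mice lay above all controls, so the groups overlapped through the highest control, replicate 4. The mean was 44.3 ± 10.8 CPM (SD, n = 5) beside 26.7 ± 7.79 CPM (SD, n = 10), a log2 difference of 0.73 (SE 0.23, unadjusted p = 0.00552, edgeR adjusted p = 0.664). Against the controls of experiment 2 the difference was 0.54 (SE 0.27, edgeR adjusted p = 0.781), with 5 of 5 mice above their median. At 500 mg/L it was 0.25 (SE 0.24, edgeR adjusted p = 0.813), and -0.09 without replicate 5.

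The authors' deposited table gives Plk2 at 10 mg/L a fold change of 1.64 with an adjusted p of 0.0491, and it was the only one of the 9 genes to pass 0.05 there. Of the 18169 genes in the authors' deposited table, 0.611% passed in that comparison. For Btg2 at 10 mg/L the authors' deposited table has a fold of 2.07 and an adjusted p of 0.137. None of the 9 genes passed in the authors' deposited table at 500 mg/L against controls, where 1.26% of genes did, or at 500 mg/L against 10 mg/L, where 1.59% did. The model behind the authors' deposited table is not given in the sources used here.

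Gadd45a, a growth arrest and DNA damage protein that binds PCNA and p38 activators, spread widely among controls, with a lowest of 19.4, a median of 38.0 and a highest of 65.0 CPM. Readings at 10 mg/L were 29.8, 27.3, 35.9, 50.4 and 53.2 CPM, and those at 500 mg/L 27.5, 24.1, 26.5, 26.99 and 44.96 CPM. Of the 5 mice at 500 mg/L, 4 lay below the control median, all within the control range. The log2 difference was 0.02 (SE 0.23, edgeR adjusted p = 0.995) at 10 mg/L and -0.37 (SE 0.24, edgeR adjusted p = 0.693) at 500 mg/L, where leaving out replicate 5 gave -0.56.

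Sesn2, a leucine-sensing inhibitor of mTORC1 signalling, had a lowest of 14.9, a median of 17.6 and a highest of 22.6 CPM in controls. The mice at 10 mg/L read 23.3, 20.5, 21.3, 15.4 and 10.6 CPM, and those at 500 mg/L 19.9, 14.8, 13.8, 19.4 and 10.7 CPM. Replicate 5 was the lowest mouse at each dose, and both lay below every control, with 1 mouse of 5 below all controls at 10 mg/L and 3 of 5 at 500 mg/L. The log2 difference was 0.0028 (SE 0.17, edgeR adjusted p = 0.999) at 10 mg/L and -0.21 (SE 0.17, edgeR adjusted p = 0.774) at 500 mg/L, where it was -0.10 without replicate 5. Within experiment 1 the 500 mg/L difference was -0.03 (SE 0.18, edgeR adjusted p = 0.994).

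Phlda3, a small pleckstrin-homology protein that holds back Akt at the membrane, was the least counted of the 9 genes. Its controls had a lowest of 8.06, a median of 11.5 and a highest of 15.8 CPM. Its values at 10 mg/L were 11.8, 12.1, 8.35, 10.4 and 10.3 CPM, and those at 500 mg/L 9.26, 7.04, 5.95, 15.1 and 7.49 CPM. At 500 mg/L 3 of 5 mice lay below all controls while replicate 4 lay near the top of their range. The log2 difference was -0.14 (SE 0.19, edgeR adjusted p = 0.939) at 10 mg/L and -0.38 (SE 0.19, edgeR adjusted p = 0.595) at 500 mg/L, and -0.66 at 500 mg/L without replicate 4. Against the controls of the own experiment the values were -0.35 (SE 0.20, edgeR adjusted p = 0.797) at 10 mg/L and -0.13 (SE 0.20, edgeR adjusted p = 0.972) at 500 mg/L.

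**Figure D2:**
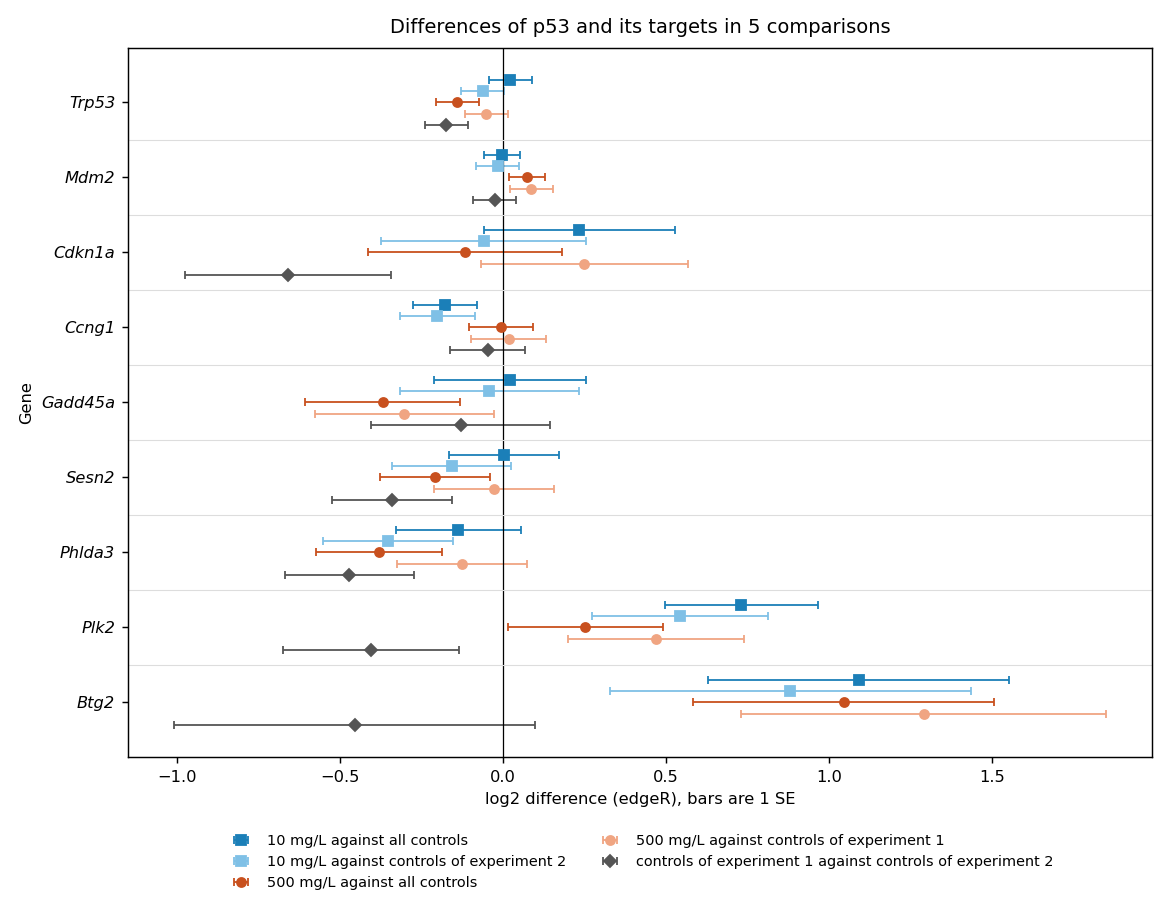
Log2 differences of the 9 genes from edgeR in 5 comparisons, with bars of 1 SE. The differences between the control sets (diamonds) all lie to the left of 0, and Plk2 and Btg2 lie to the right of 0 in all 4 comparisons of exposed mice.

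The 9 genes were also compared between the unexposed mice of the 2 experiments. All 9 had a log2 difference below 0 in the controls of experiment 1 against those of experiment 2, where 49.7% of all tested genes did, and the median of the 9 was -0.34 beside 0.00094 over all genes. This count by sign was chosen after the values had been seen, and it was 8 of 9 without control replicate 4, 6 or 9, where Mdm2 or Gadd45a lay just above 0. None of the 9 passed edgeR's adjusted threshold, where 0.157% of genes did, and 2 of 9 (Trp53 and Phlda3) had an unadjusted p under 0.05 beside 9.78%. DESeq2, limma-trend and limma-voom also called 0 of the 9 there. The 2 control sets did not overlap for 1 of 9 genes, Cdkn1a, beside 3.10% of all genes. Its mean was 11.9 ± 2.67 CPM in experiment 1 and 18.9 ± 3.43 CPM in experiment 2 (SD, n = 5 each), a log2 difference of -0.66 (SE 0.32, edgeR adjusted p = 0.512). Phlda3 differed by -0.47 (SE 0.20, edgeR adjusted p = 0.440), Sesn2 by -0.34 (SE 0.18, edgeR adjusted p = 0.574) and Trp53 by -0.17 (SE 0.07, edgeR adjusted p = 0.392). Luteal markers were higher in the same comparison, 6 of 6 above 0 with a median log2 difference of 0.95 and 2 at an unadjusted p under 0.05. Leukocyte markers (7 of 7, median 0.50, 2 at that p) and smooth muscle and pericyte markers (6 of 6, median 0.18, 1 at that p) were also higher. Oocyte markers (7 of 7, median -0.20, 0 at that p) and erythroid markers (5 of 5, median -0.38, 1 at that p) were lower. The granulosa, theca, endothelial and stroma lists were mixed in sign. Of 6 theca markers, 1 was higher and 2 were lower at that p, with a median of -0.24. In the granulosa, endothelial and stroma lists 0 markers were at that p. The part of these cell types in the differences of the 9 genes was not tested.

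With each dose set against its own controls, 0 of 9 genes were called at either dose, as were 0.00% of all tested genes at each. At an unadjusted p under 0.05 there were 0 of 9 at 10 mg/L (6.45% of all genes) and 1 of 9 at 500 mg/L, Btg2 (5.19%). That Btg2 difference, 1.29 (SE 0.56, edgeR adjusted p = 0.954), rested on replicate 5 and was -0.02 (SE 0.32) without it. Without the same mouse, which enters the 10 mg/L comparison only through the shared estimate of spread, 2 of 9 genes had an unadjusted p under 0.05 at 10 mg/L, Btg2 at 0.89 (SE 0.30, edgeR adjusted p = 0.641) and Plk2 at 0.55 (SE 0.21, edgeR adjusted p = 0.703). The share of all tested genes at that unadjusted p was not counted in this fit, so 2 of 9 has no background beside it. The difference between the 2 dose effects was called for 0 of 9 genes (0.00% of all genes) and had an unadjusted p under 0.05 for 0 of 9 (5.41%). For Btg2 it was 0.41 (SE 0.78, edgeR adjusted p = 0.987), and -0.91 (SE 0.44, edgeR adjusted p = 0.818) without replicate 5 at 500 mg/L. In the direct comparison of 500 mg/L with 10 mg/L, which also holds the difference between experiments, 0 of 9 were called (0.0112% of all genes) and 1 of 9, Trp53, had an unadjusted p under 0.05 (10.0%), with a log2 difference of -0.16 (SE 0.08, edgeR adjusted p = 0.485). DESeq2, limma-trend and limma-voom called 0 of the 9 in each of these 4 comparisons.

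Mice of the same group and experiment differed most in Btg2, with a pooled SD of log2 CPM of 0.86. Cdkn1a at 0.54, Gadd45a at 0.46 and Plk2 at 0.45 followed. Phlda3 and Sesn2 each had a pooled SD of 0.32, and Ccng1 had 0.19. All but Ccng1, Trp53 and Mdm2 lay above the median of all tested genes given above.

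Whether the 9 genes varied together from mouse to mouse was tested over all 20 mice for the 36 pairs, with a permutation test (two-sided) and Benjamini-Hochberg adjustment over the pairs. Of the 36 Pearson correlations 27 were positive, and 2 had an adjusted p under 0.05. Cdkn1a and Sesn2 had r = 0.75 (permutation p = 0.00012, adjusted p = 0.00432) and rho = 0.87 (permutation p = 1e-05, the smallest that the permutations can give, adjusted p = 0.00036). Within experiments r was 0.65 in experiment 1 and 0.80 in experiment 2, and it was 0.78 without the 2 mice farthest from the median of Cdkn1a. Plk2 and Btg2 had r = 0.72 (permutation p = 0.00025, adjusted p = 0.0045) and rho = 0.71 (permutation p = 0.00076, adjusted p = 0.0137). That relation was r = 0.69 in each experiment and 0.65 without the 2 mice farthest from the median of Plk2. After the mean of each group in each experiment had been subtracted, Cdkn1a with Sesn2 (r = 0.70) still passed and Plk2 with Btg2 (r = 0.59) did not, while Ccng1 with Phlda3 (r = 0.76) did. Trp53 with Mdm2 had r = -0.31 (permutation p = 0.186, adjusted p = 0.450), and Mdm2 with Cdkn1a r = 0.33 (permutation p = 0.160, adjusted p = 0.450).

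**Figure D3:**
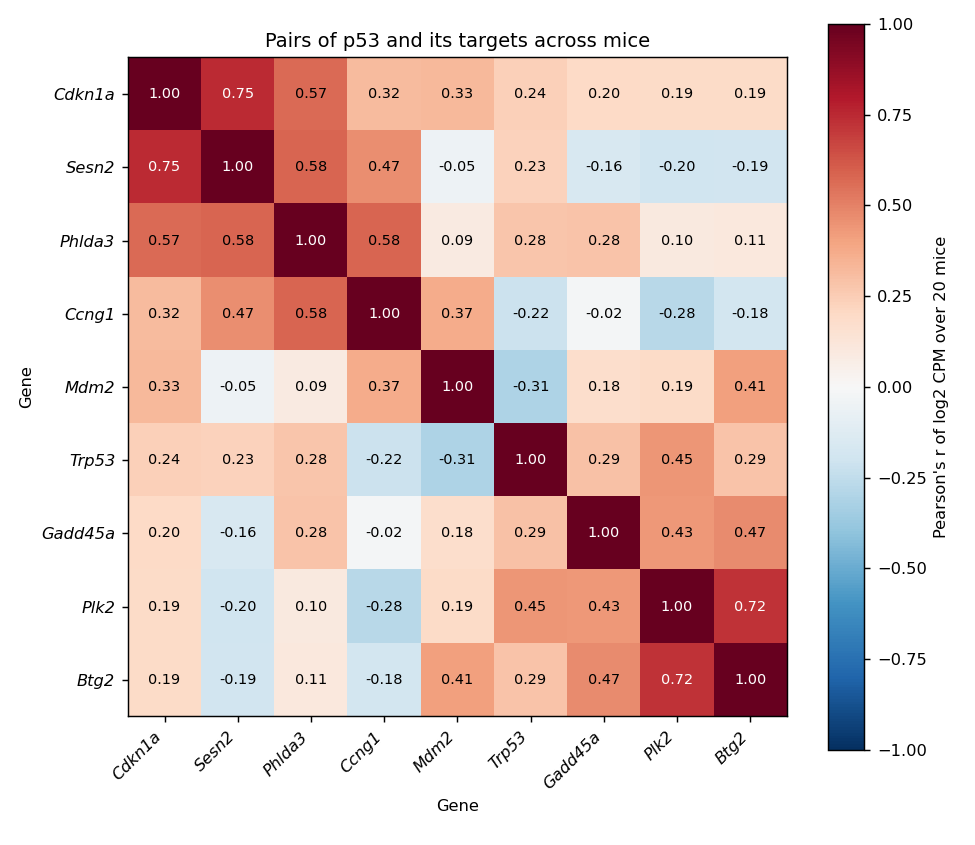
Pearson correlation of log2 CPM over the 20 mice for each pair of the 9 genes, written in each cell and shaded from -1 (blue) to 1 (red). The 2 darkest cells off the diagonal are Cdkn1a with Sesn2 at 0.75 and Plk2 with Btg2 at 0.72.

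Immediate early genes, which are transcribed within minutes of a stimulus, moved with Btg2. Of 28 listed, 27 were tested, and the summed level of the list was 1709 to 2596 CPM in controls, 1851 to 4944 CPM at 10 mg/L and 1457 to 8338 CPM at 500 mg/L. The highest mouse was replicate 5 at each dose, and Fos read 1577 CPM in that mouse at 500 mg/L. None of the list passed edgeR's adjusted threshold, and 11 of 27 at 10 mg/L and 10 of 27 at 500 mg/L were higher at an unadjusted p under 0.05, beside 3.08% and 4.51% of all tested genes. Both counts fell when replicate 5 of the dose group was left out, which also left 1 mouse fewer. Then 1 of 28 tested genes was higher at 10 mg/L (3.15% of all genes) and 1 of 28 at 500 mg/L (3.98%). In mean log2 CPM of the list, replicate 5 at 500 mg/L was at 6.59, and the other 4 mice of its group ran from 4.04 to 4.88, beside 4.20 to 4.98 in controls. At 10 mg/L, replicates 2 and 4 also lay above all controls, at 5.23 and 5.26, beside 5.84 in replicate 5. Replicates 1 and 3 there lay within the control range, at 4.42 and 4.72. Btg2 read 59.3 CPM, above all controls, in replicate 1 and 49.6 CPM in replicate 3. Plk2 read 57.2 CPM in replicate 1, the highest of its group. The mean log2 CPM of the list correlated with Btg2 over the 20 mice at r = 0.88 (permutation p = 1e-05, the smallest that the permutations can give, adjusted over 9 relations p = 9e-05) and rho = 0.77 (permutation p = 0.0001, adjusted p = 0.0009), with r = 0.94 in experiment 1, 0.75 in experiment 2 and 0.71 without the 2 farthest mice. With Plk2 it had r = 0.56 (permutation p = 0.00838, adjusted p = 0.0377) and rho = 0.44 (permutation p = 0.0562, adjusted p = 0.126), and r was 0.19 without the 2 farthest mice, so that relation rested on them. With Sesn2 it had r = -0.54 (permutation p = 0.0144, adjusted p = 0.0433) and rho = -0.12 (permutation p = 0.608, adjusted p = 0.782), and r was 0.15 without the same 2 mice, although within experiments, each of which holds 1 of them, it was -0.60 and -0.86. Cdkn1a had r = -0.16 (permutation p = 0.504, adjusted p = 0.543), with -0.03 in experiment 1 and -0.85 in experiment 2. The part of these genes in the differences of Btg2 and Plk2 between groups was not tested.

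**Figure D4:**
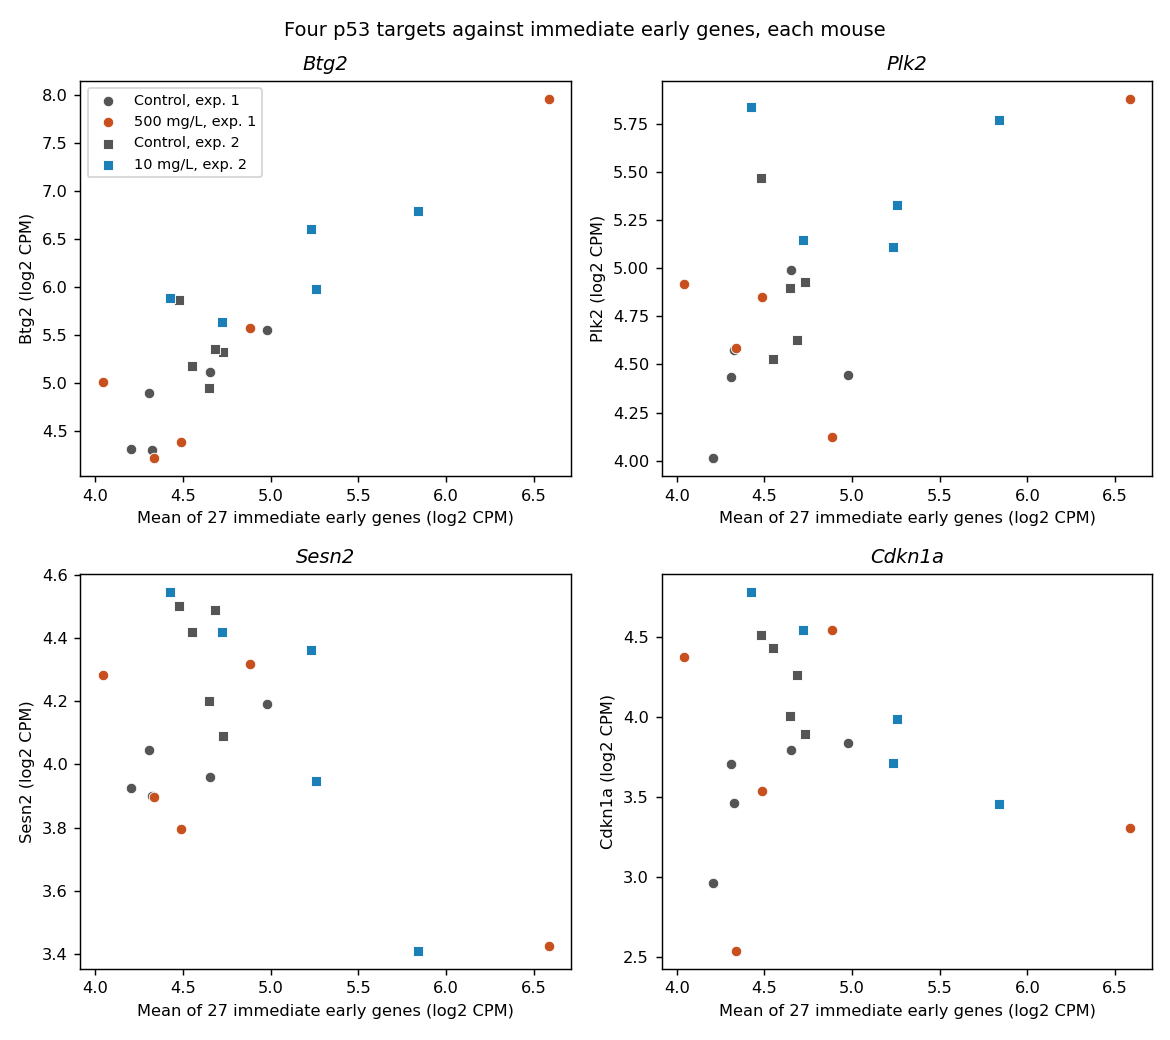
Log2 CPM of Btg2, Plk2, Sesn2 and Cdkn1a against the mean log2 CPM of 27 immediate early genes, 1 point per mouse, with experiment 1 as circles and experiment 2 as squares. Btg2 climbs with the early genes (r = 0.88). Replicate 1 at 10 mg/L lies at 5.89 in Btg2 and at an early gene mean of 4.42. The lowest Sesn2 values belong to the 2 mice farthest to the right.

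Endothelial markers were also higher at 10 mg/L, 8 of 8 above 0 with a median log2 difference of 0.34 and 6 of 8 at an unadjusted p under 0.05 (3.08% of all tested genes were higher at that p), with summed levels of 348 to 509.7 CPM beside 279 to 449 CPM in controls. At 500 mg/L their median was 0.03. None of these markers was at 0 in any mouse. Of 6 luteal markers, 5 lay above 0 at 10 mg/L against all controls (median 0.49, 0 at an unadjusted p under 0.05) and 5 against the controls of experiment 2 (median 1.12, 2 at an unadjusted p under 0.05), with summed levels of 3053 to 7467 CPM beside 3343 to 7661 CPM in controls. Without replicate 4 at 10 mg/L the luteal median against all controls was 0.02. All 5 erythroid markers lay above 0 at both doses, with medians of 0.64 and 0.74, 0 and 1 of them at an unadjusted p under 0.05, and summed levels of 25.5 to 113 CPM at 10 mg/L and 31.0 to 133 CPM at 500 mg/L beside 16.96 to 75.7 CPM in controls. Of all tested genes, 3.08% at 10 mg/L and 4.51% at 500 mg/L were higher at that p. Among the erythroid markers Hba-a2 was at 0 in 1 mouse of each group. The part of these cell types in the Plk2 and Btg2 values was not tested.

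The rest of the pathway showed no called gene at either dose with edgeR. Of 18 regulators of p53, 0 had an adjusted p under 0.05 at either dose, with medians of 0.03 at 10 mg/L and 0.05 at 500 mg/L. At an unadjusted p under 0.05 there was 1 of 18 at each dose, beside 6.22% of all tested genes at 10 mg/L and 8.69% at 500 mg/L. Ppm1d, a phosphatase that turns off p53, was lower at 10 mg/L (-0.12, SE 0.05, edgeR adjusted p = 0.758), and Kat5, an acetyltransferase that acts on p53, was higher at 500 mg/L (0.14, SE 0.05, edgeR adjusted p = 0.477). Of 14 further targets in arrest and metabolism, 0 were called, 1 was higher and 1 lower at an unadjusted p under 0.05 at 10 mg/L, and none was at 500 mg/L, beside the same shares of all genes, with medians of 0.03 at both doses. Those 2 were Tsc2, a brake on mTORC1, at 0.11 (SE 0.05, edgeR adjusted p = 0.761) and Trp53inp1, a p53-induced nuclear protein, at -0.20 (SE 0.08, edgeR adjusted p = 0.760).

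Cell death targets did not stand apart. Of 14, 0 were called and 0 had an unadjusted p under 0.05 at either dose, beside 6.22% and 8.69% of all tested genes, and the medians were -0.08 at 10 mg/L and -0.0043 at 500 mg/L. Bax, which permeabilises mitochondria, differed by -0.12 (SE 0.06, edgeR adjusted p = 0.811) at 10 mg/L, and the death receptor Fas by 0.40 (SE 0.27, edgeR adjusted p = 0.715) at 500 mg/L. Of 10 DNA repair and nucleotide targets 0 were called. At 500 mg/L 3 of the 10 were higher at an unadjusted p under 0.05, where 4.51% of all tested genes were: Rrm2b, a subunit of ribonucleotide reductase (0.23, SE 0.07, edgeR adjusted p = 0.321), Ercc5, a nuclease of excision repair (0.17, SE 0.05, edgeR adjusted p = 0.339), and Polk, a polymerase that copies past lesions (0.18, SE 0.08, edgeR adjusted p = 0.560). At 10 mg/L 1 of the 10 was higher at that p, where 3.08% of all tested genes were: Mgmt, which removes alkyl groups from guanine (0.27, SE 0.12, edgeR adjusted p = 0.789). Their list had a median of 0.06 at 500 mg/L and -0.02 at 10 mg/L. Of 14 paralogs of the 9 genes 13 were tested and 0 were called. Cdkn1b, which encodes the kinase inhibitor p27, had the smallest p at 10 mg/L (-0.22, SE 0.10, edgeR adjusted p = 0.789), and Tob2, of the same family as Btg2, at 500 mg/L (-0.15, SE 0.11, edgeR adjusted p = 0.753). At an unadjusted p under 0.05 there was 1 of 13 at 10 mg/L, Cdkn1b, beside 6.22% of all tested genes. At 500 mg/L there were 0 of 13, beside 8.69%. DESeq2, limma-trend and limma-voom were not used to count calls within these lists.

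Among genes outside the set, likeness was measured by Pearson's r of log2 CPM over the 20 mice, as a description with no test, since the mice share group, experiment and library scaling. Nearest to Btg2 were Sertad1 (r = 0.94), Socs3 (0.93) and Dusp1 (0.90), the last of which is in the immediate early list. Sesn2 was nearest to AI450353 (0.92), Ifitm5 (0.92) and Fasn (0.91), Fasn being the fatty acid synthase. Phlda3 was nearest to Pcbp4 (0.87), an RNA-binding protein, then Yap1 and Fmod (0.79 each). Ccng1 was nearest to Eda2r (0.80), a TNF-family receptor listed above among the cell death targets, with r = 0.81 in experiment 1 and 0.84 in experiment 2. The nearest genes were Usp14 for Trp53 (0.82), Rad1 for Mdm2 (0.75), Timm29 for Cdkn1a (0.82), Gm35438 for Gadd45a (0.85) and Clcn4 for Plk2 (0.80). Without the 2 mice farthest from each member's median these 9 nearest values ran from 0.69 (Usp14) to 0.90 (Sertad1).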

How the data were processed

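Poly(A)-selected, stranded RNA was sequenced from 1 end, per the labels' protocols. Per the submitters' processing notes, the build was GRCm39 and the tools included Salmon 1.2.0, which estimates counts per transcript, with edgeR and limma. The step from transcripts to genes is not given in the sources used here. Estimated counts per gene in the deposited table are not normalised, judged from their values, and reads shared by near-identical genes are divided by estimation. The authors' deposited table of results holds average log2 expression, p-values, an F score and signed linear fold scores, all computed by the authors.

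Counts were rounded (median change of a library's total 79.96) and fitted in R 4.3.3 with edgeR 4.0.16 (expression filter by group, TMM, robust quasi-likelihood F-test, two-sided, Benjamini-Hochberg over 17810 genes). A model with 1 mean per group gave the comparisons with all controls, because the submitters combined them, and a model of 4 means, with experiment and group crossed, gave the others. The experiment of each control comes from the column headers. SD is over mice on CPM, and log2 CPM has a prior count of 2. Between the 65 pairs of libraries within groups, chi-square per gene was 21.8 to 150.1, which is no copy. The test was also run on simulated counts with planted changes. No difference between experiments and no outlying mouse was planted, so that run does not bear on either.

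The 9 genes, the gene lists and the tests were chosen with earlier results of these data known. Named beside the 9 genes were the 3 most correlated genes of each, up to 3 genes of smallest p per pathway list and dose, and Fos, Egr1 and Atf3 as values; only some of these are described. Alternatives were other scalings and filters, DESeq2 1.42.0, limma 3.58.1 (trend and voom), own controls, experiment as a term, replicate number as a block, a prior count of 0.5 and each mouse left out. Leaving out together replicate 2 at 10 mg/L and replicate 5 at 500 mg/L was added after seeing the data, as were the lists and the other comparisons with each mouse left out.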

Additional observations from a re-analysis of the deposited data

Results flagged for a closer look

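Of 27 sets of mice checked (each of the 9 genes in each of 3 groups), 2 had a mouse far from the others of its group by Dixon's test, and chance flags about 1 in 20. Both were replicate 5 at 500 mg/L. Btg2 read 249.5 CPM in that mouse and 47.5 CPM in the next highest, and Gadd45a read 44.96 CPM in it and 27.5 CPM in the next highest. Without this mouse the log2 difference of Btg2 at 500 mg/L was -0.26 and that of Gadd45a -0.56.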

How the results depend on the processing

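In 207 of 207 alternative fits over the 7 comparisons, edgeR, DESeq2 and limma called 0 of the 9 genes. These fits share their mice, and few or no genes passed in them over all genes. The 0 of 9 therefore does not set the 9 genes apart from other genes. Over all genes with an adjusted p, DESeq2 called 8 of 29269 at 10 mg/L, 84 of 10555 at 500 mg/L and 118 of 11689 between the doses. There edgeR called 1, 2 and 2 of 17810. Against own controls DESeq2 called 31 of 22447 at 10 mg/L and 5 of 29269 at 500 mg/L, where edgeR called 0 and 0. For the difference between the dose effects DESeq2 called 15 of 20746, where edgeR called 0. Between the control sets DESeq2 called 193 of 16795, where edgeR called 28. A gene without an adjusted p was counted as not called. Limma-trend and limma-voom called 0 at either dose. Without a filter on low counts edgeR called 0, 2 and 0 in the first 3 and 11 between the control sets. With replicate number as a block, edgeR called 0 genes at 10 mg/L, 17 at 500 mg/L and 8 between the doses, and in that block the log2 difference at 10 mg/L was -0.061 for Trp53, -0.16 for Cdkn1a, -0.10 for Gadd45a and -0.20 for Sesn2. Controls 6 to 10, whose numbers occur once each, carried no weight in that fit. The 500 mg/L mice of experiment 1 were thus set against controls of experiment 2. Those 17 calls therefore also hold the difference between experiments. Of 15 same-numbered pairs 3 correlated above 0.1 (range -0.13 to 0.23) and 5 correlated best with their own number, so the numbers were not taken to pair mice. No block could be fitted for own controls at 500 mg/L, the control sets or the difference between the dose effects, which use controls 6 to 10, whose numbers do not recur in the mice set against them. Signs turned as follows, and the cause was not tested. With own controls, or experiment as a term, which gave the same values, the difference at 10 mg/L was -0.062 for Trp53, -0.059 for Cdkn1a, -0.042 for Gadd45a and -0.16 for Sesn2, and at 500 mg/L 0.25 for Cdkn1a and 0.017 for Ccng1. Upper-quartile scaling gave 0.0092 for Mdm2 at 10 mg/L and 0.0057 for Ccng1 at 500 mg/L, a minimum of 1 CPM gave 0.0050 for Mdm2 at 10 mg/L, and for Sesn2 at 10 mg/L no filter gave -0.0026, limma-trend -0.035 and limma-voom -0.044. Without both replicate 2 at 10 mg/L and replicate 5 at 500 mg/L, an alternative chosen after seeing the data, values were 0.027 for Mdm2 and -0.037 for Sesn2 at 10 mg/L and 0.016 for Ccng1, -0.094 for Plk2 and -0.26 for Btg2 at 500 mg/L. With each mouse left out in turn, ranges at 10 mg/L were 0.036 to 0.37 for Cdkn1a, -0.020 to 0.026 for Mdm2, -0.11 to 0.13 for Gadd45a and -0.099 to 0.15 for Sesn2, and at 500 mg/L -0.37 to 0.083 for Cdkn1a, -0.13 to 0.081 for Ccng1, -0.094 to 0.40 for Plk2 and -0.26 to 1.29 for Btg2. Plk2 and Btg2 at 10 mg/L stayed above 0 in 32 of 32 alternatives each. Cdkn1a with Sesn2 passed in 24 of 24 alternatives and Plk2 with Btg2 in 23 of 24, and with a mouse left out the number of pairs past the threshold ran from 2 to 5, with 5 without replicate 1 at 500 mg/L and 4 without replicate 3 or without replicate 5 at 10 mg/L. Unadjusted p-values under 0.05, with each mouse left out in turn, numbered 1 to 3 of the 9 genes at 10 mg/L, 1 to 2 at 500 mg/L and 0 to 4 between the doses. With every mouse kept, 6.22%, 8.69% and 10.0% of all tested genes had such a p in these comparisons. That share in either direction was not counted with a mouse left out. How far depth or the number of mice limits these comparisons was not tested, and the lowest estimated count of any of the 9 genes in a mouse was 257.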
